A study of Rattus norvegicus with 6 samples.

Results

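Glycolysis and hypoxia response genes were followed in cultures of rat RGCs (retinal ganglion cells, whose axons form the optic nerve) after 12 h with the secreted protein Chrdl1 or with its vehicle. The set was a list of 33 gene symbols looked up by name in the deposited expression table. Of the 33 genes, 32 had a row in the table of 17366 transcripts and Egln1 had none. A total of 28 genes reached an expression of at least 1 FPKM (fragments counted per kilobase of transcript, scaled to the library's read total) in at least 3 libraries and were tested among 10390 such transcripts. Tpi1, Eno2, Slc2a3 and Car9 did not reach it.

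The cells came from Sprague Dawley rats labelled P5 and were kept in culture for 10 days. One group of 3 libraries received Chrdl1 (chordin-like 1, which binds bone morphogenetic proteins) at 1 µg/ml, and the other group of 3 received vehicle with 0.1% BSA and 4 mM HCl. Library titles end in a number, as in RGCControl052416, and each of the 3 numbers is carried by 1 Chrdl1 and 1 vehicle library; in ascending order they are called pairs A, B and C. No label states what the number means, nor that replicates are separate cultures or animals, and the spread behind every p-value may therefore be technical. The extraction protocol names visual cortex, whereas the source name, cell type and treatment labels name RGCs. The RGC marker list (7 of 8 genes listed) summed to 1971 to 2328 FPKM per library. The astrocyte and Müller glia list (8 of 8 listed) summed to 53.8 to 95.7 FPKM, of which Glul made up 51.5 to 82.5 FPKM. In that list Slc1a3 and Gja1 reached at most 5.95 and 4.82 FPKM, and Gfap and Aqp4 at most 1.24 and 0.017 FPKM. The read total behind the FPKM scale was 14546600 in vehicle library B and 22870500 to 26551800 in the other 5 libraries.

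Glycolysis converts glucose to pyruvate in the cytosol. Glucose enters through Slc2a family transporters, hexokinase and phosphofructokinase commit it to the pathway, and lactate dehydrogenase interconverts pyruvate and lactate. When oxygen is low, prolyl hydroxylases of the Egln family no longer mark the alpha subunit of the hypoxia-inducible factor (HIF) for destruction by the Vhl ubiquitin ligase. HIF, a dimer of an alpha subunit such as Hif1a with Arnt, then binds the core letters ACGTG or GCGTG near its target genes. Known targets include many glycolytic enzymes as well as Vegfa, Adm and Bnip3.

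Promoters were inspected first, because many of these genes are known to be bound by HIF through its core letters. RefSeq promoter sequences (GRCr8) were available for 29 of the 33 symbols, and Ero1a, Slc2a3, Ndrg1 and Pgk1 had no entry. In the 250 bases before the transcript start, ACGTG or GCGTG occurred on either strand in 20 of 29 members (69.0%), against 39.6% of 27457 symbols with a promoter. ACGTG was found in 12 members (41.4% against 18.1%), GCGTG in 15 (51.7% against 28.4%) and the palindrome CACGTG in 4 (13.8% against 6.18%). CACGTG holds ACGTG on both strands and so counts as 2 overlapping matches. The member promoters had a median GC content of 63.2% and all promoters 51.2%, and the motif shares were not adjusted for it. A match is a description of the letters and not a measured binding site. The 4 promoters with the most matches are printed below, together with that of Adm, which had no match. Each is the 250 bases before the start, 5′ to 3′ on the strand of the gene, with capitals marking the motif letters. A match on the opposite strand reads CACGT for the former motif, whereas for the latter motif it reads CACGC.
Ldha: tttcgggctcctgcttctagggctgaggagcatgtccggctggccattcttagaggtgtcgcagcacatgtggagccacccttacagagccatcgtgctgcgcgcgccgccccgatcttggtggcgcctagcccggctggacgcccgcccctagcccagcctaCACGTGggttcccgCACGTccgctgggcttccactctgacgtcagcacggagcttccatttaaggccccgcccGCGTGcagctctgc
Slc2a1: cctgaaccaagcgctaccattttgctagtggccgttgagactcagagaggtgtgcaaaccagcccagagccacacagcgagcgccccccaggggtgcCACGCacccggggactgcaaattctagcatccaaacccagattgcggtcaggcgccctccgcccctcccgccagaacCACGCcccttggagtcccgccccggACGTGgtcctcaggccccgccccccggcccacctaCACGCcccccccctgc
Bnip3: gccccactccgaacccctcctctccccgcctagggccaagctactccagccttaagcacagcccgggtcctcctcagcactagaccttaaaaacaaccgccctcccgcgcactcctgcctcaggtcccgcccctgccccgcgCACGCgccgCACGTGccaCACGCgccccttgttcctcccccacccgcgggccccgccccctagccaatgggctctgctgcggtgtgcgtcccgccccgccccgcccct
Ankrd37: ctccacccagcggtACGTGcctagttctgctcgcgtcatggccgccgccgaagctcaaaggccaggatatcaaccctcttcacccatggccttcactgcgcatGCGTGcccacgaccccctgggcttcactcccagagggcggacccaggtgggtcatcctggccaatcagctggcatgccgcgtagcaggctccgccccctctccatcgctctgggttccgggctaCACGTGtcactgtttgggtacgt
Adm: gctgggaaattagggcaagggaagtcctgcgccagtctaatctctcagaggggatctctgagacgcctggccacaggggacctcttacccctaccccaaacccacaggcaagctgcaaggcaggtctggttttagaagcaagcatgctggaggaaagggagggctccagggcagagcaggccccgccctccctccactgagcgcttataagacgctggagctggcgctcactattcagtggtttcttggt

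The Ldha promoter (chr1:106507842-106508091, plus strand) held 4 matches, at positions -87, -86, -73 and -14 relative to the start, the first 2 of them from 1 palindrome. Slc2a1 (chr5:138002272-138002521, plus strand) held 4 separate matches, at -153, -76, -51 and -16. Bnip3 (chr1:203154963-203155212, minus strand) held its 4 close together, at -108, -99, -98 and -90. Ankrd37 (chr16:53001257-53001506, plus strand) had a palindrome at -23 and -22 and single matches at -236 and -147. In the Adm window (chr1:174179950-174180199, plus strand) there was no match, which says only that the letters are not within these 250 bases.

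The enzymes of the glycolytic trunk were among the abundant transcripts of these cultures. The median level of the 28 tested members was 31.6 FPKM, and 21 of them lay above the median of all tested transcripts, 12.9 FPKM. The 15 enzyme genes from hexokinase to pyruvate kinase that the table lists summed to 1526 to 2038 FPKM per library, with Tpi1 and Eno2 entering at or near 0. All FPKM summed to 302709, 280190 and 307560 in vehicle libraries A, B and C. In the Chrdl1 libraries they summed to 300432, 275049 and 285791, lower in each pair. The enzymes' share of all FPKM was 0.650%, 0.571% and 0.663% in vehicle and 0.655%, 0.555% and 0.604% in Chrdl1. Aldoa and Aldoc, which cleave fructose bisphosphate, were the highest, and both lay above the 99th percentile of tested transcripts (264 FPKM). Next came Pgam1, Gpi and Pgk1 at means of 174, 169 and 153 FPKM over the 6 libraries. Hk1, the constitutive brain hexokinase, averaged 95.4 FPKM and Hk2, its HIF-responsive paralog, 2.74 FPKM. The hypoxia response genes ranged from Vegfa at 36.8 FPKM to Car9 at 0.970 FPKM.

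**Figure D1:**
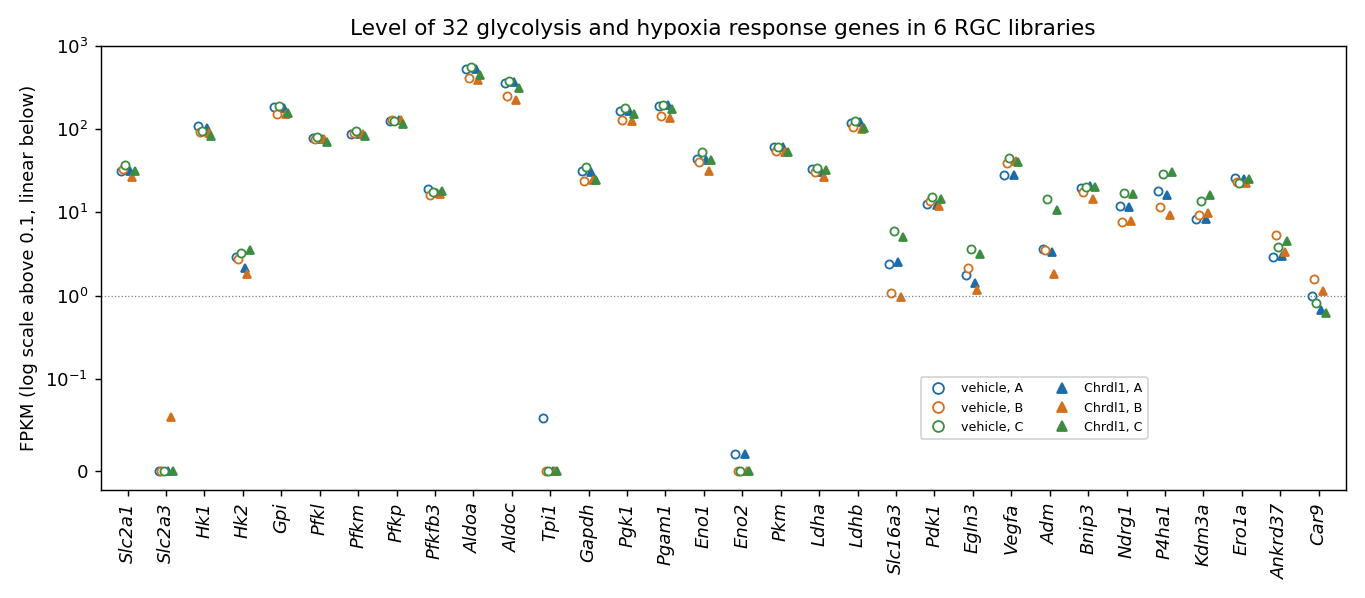
Level of each of the 32 listed genes in each of the 6 libraries, in FPKM on an axis that is logarithmic above 0.1 and linear below; open circles are vehicle, triangles Chrdl1 and colours the pairs, and the dotted line marks 1 FPKM. Aldoa and Aldoc are highest, Tpi1, Eno2 and Slc2a3 lie at or near 0, and Slc16a3, Adm and P4ha1 differ widely between pairs.

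Some values near 0 stood beside a property of the deposited table. Tpi1, triosephosphate isomerase, was at 0.057 FPKM in vehicle library A and listed at 0 in the other 5. Eno2, the neuronal enolase, was at 0.019 FPKM in both libraries of pair A and listed at 0 in the other 4. Slc2a3, the neuronal glucose transporter, was at 0.059 FPKM in Chrdl1 library B and listed at 0 in the other 5. These 3 are the only members that the table's copy number column gives as 2, and the other 29 listed members are given as 1. What that column counts is not given in the sources used here. Over the whole table, 424 of 558 transcripts with 2 or more copies (76.0%) were listed at 0 in all 6 libraries, against 2771 of 16808 with 1 copy (16.5%). The same held along chromosome 4 of rn6: Grcc10, Eno2, Lrrc23, Spsb2 and Tpi1 had 2 copies and at most 0.057 FPKM. Their flanking genes Ptpn6 and Usp5 had 1 copy, with 1.22 to 11.1 and 10.3 to 14.0 FPKM. Tpi1 is a housekeeping enzyme, so its listed 0, like those of Eno2 and Slc2a3, is given as a table entry and no level or fold of the gene is drawn from it. Whether the copy number accounts for these entries was not tested.

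A further limit concerns enzymes with many processed pseudogenes, whose reads may be shared with near-identical copies. RefSeq names 81 pseudogenes after Gapdh, 31 after Eno1, 30 after Ldha, 19 after Pkm, 13 after Pgam1, 9 after Aldoa, 8 each after Pgk1 and Bnip3, and 1 each after Ldhb and Ankrd37. It also names 3 after Tpi1, whose entry is at or near 0, and 6 after Egln1, which has no row. Gapdh averaged 28.3 FPKM, below Pgk1 of the next step. The levels of these genes are therefore uncertain, and how reads matching several places were counted is not given in the sources used here.

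**Figure D2:**
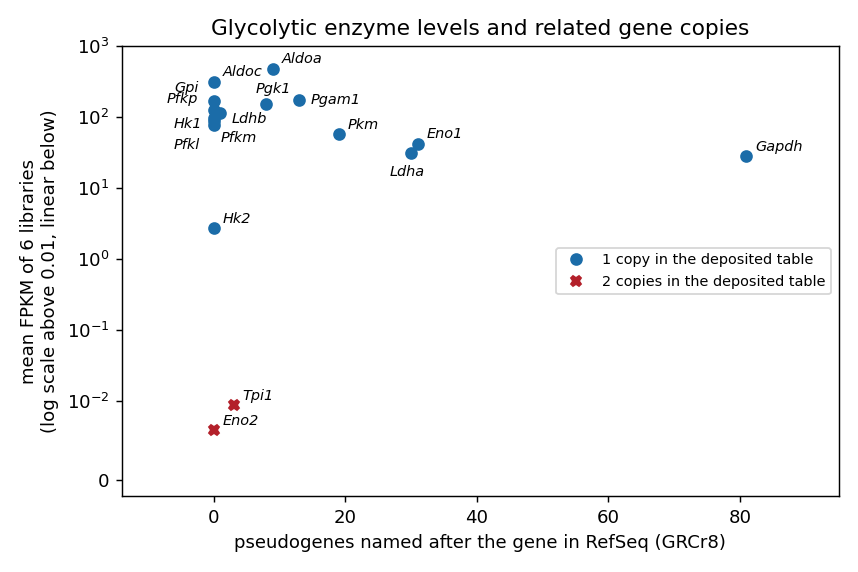
Mean FPKM over 6 libraries (logarithmic above 0.01, linear below) of the glycolytic and lactate dehydrogenase genes against the number of pseudogenes named after each in RefSeq; circles have 1 copy and crosses 2 copies in the deposited table. Tpi1 and Eno2 are both crosses near 0, and Gapdh, with 81 pseudogenes, lies at 28.3 FPKM.

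No glycolysis or hypoxia response gene passed the test between Chrdl1 and vehicle. With limma on log2(FPKM + 1), 0 of 28 members and 0 of 10390 transcripts (0%) reached a Benjamini-Hochberg adjusted p under 0.05. The smallest adjusted p of a member was 0.9998. At an unadjusted p under 0.05 there were 18 transcripts (0.173%) and no member, and voom on recovered reads called 0 transcripts with 3 at an unadjusted p under 0.05. The median half-width of the members' 95% confidence intervals was 0.37 on the log2 scale, so most differences smaller than that were not detectable without pairing. All differences given are Chrdl1 minus vehicle in units of log2(FPKM + 1), where genes near 1 FPKM appear to change less than they do.

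Pairing the libraries by title number narrowed the intervals and left the call as it was. With the pair as a replicate block in limma, the median half-width was 0.16, and again 0 members and 0 transcripts (0%) were called. At an unadjusted p under 0.05, 4 members were lower (14.3% of 28, against 4.19% of all transcripts), namely Eno1, Slc2a1, Egln3 and Adm, and 0 were higher (against 0.962%). The 535 transcripts at that level were 100 higher and 435 lower, a split that moved with the scaling. It was 327 higher and 162 lower by voom with the block, which had 0 calls, and 145 higher and 229 lower after quantile normalization. The members at that level numbered 3 by voom and 2 after quantile normalization.

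Most members had small negative differences. The mean difference was negative for 26 of 28 members (92.9%, against 61.6% of all tested transcripts), the exceptions being Ero1a at 0.04 and Kdm3a at 0.09. In all 3 pairs 11 members were lower in the Chrdl1 library (39.3%, against 19.5%) and 0 were higher in all 3 (against 7.55%). The 11 were Slc2a1, Hk1, Pfkl, Aldoa, Pgk1, Eno1, Pkm, Ldha, Pdk1, Egln3 and Adm. In Pfkl (chr20:11393887-11415880 of rn6, plus strand), the liver-type phosphofructokinase, every Chrdl1 library lay below every vehicle library, which makes 1 of 28 members (3.57%) against 1.87% of all transcripts. No member had the reverse order, against 0.577%. The median difference of the members was -0.10, and that of all tested transcripts -0.03. Members share a pathway and vary together, so these counts are descriptions of 6 libraries.

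Single libraries moved the size of that median. It was -0.19 without vehicle library B and -0.15 without Chrdl1 library A. It was -0.04 without vehicle library C, -0.05 without Chrdl1 library B and -0.04 without both libraries of pair C. The count of negative members moved too. It was 18 of 28 without Chrdl1 library B (against 56.8% of all transcripts) and 20 of 28 without vehicle library C (against 51.6%). Leaving out any other single library gave 24 to 27. With 1 library left out, the pairs are no longer balanced between treatments. After quantile normalization the member median was -0.05, with 23 of 28 members negative against 49.7% of all transcripts.

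The pairs differed in where the members stood. In pair A the member median was -0.02, close to the -0.01 of all tested transcripts. In pair B it was -0.08 against -0.02, with the 9 hypoxia response genes at -0.28 and the 19 genes of glucose uptake, glycolysis and lactate handling at -0.07. In pair C it was -0.17 against -0.05, with the hypoxia genes at 0.01 and the glycolysis genes at -0.19. The difference between the 2 groups of genes was not tested. Tested transcripts of 1000 to under 3000 bases, the range of 24 of the 28 members, had medians of -0.02, -0.03 and -0.09 in pairs A, B and C. With the trend on transcript length removed within each pair, the member median over all pairs was -0.05 and that of all tested transcripts -0.00084.

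Summed marker lists of several cell types, which are no part of the set, also stood lower in the Chrdl1 library of each pair. So did the FPKM total of all transcripts, and the part of that total in these differences was not tested. The microglia list was at 192, 23.5 and 243 FPKM in vehicle libraries A, B and C and at 160, 13.0 and 218 FPKM in Chrdl1. The endothelial and mural list was at 90.8, 18.2 and 137 FPKM in vehicle and 82.4, 12.6 and 133 FPKM in Chrdl1, and the astrocyte and Müller glia list at 74.7, 62.02 and 95.7 FPKM and 72.3, 53.8 and 90.02 FPKM. The RGC list itself was at 2328, 2070 and 2217 FPKM in vehicle and 2321, 2050 and 1971 FPKM in Chrdl1. The RGC sum was thus lower as well, though only slightly in pairs A and B. It was led by Sncg at 819 to 1105 FPKM and Nefl at 524 to 632 FPKM. Sncg was higher in Chrdl1 in pairs A and B and lower in pair C, while Nefl was lower in each pair. The photoreceptor list was lower in Chrdl1 in pair A and higher in pairs B and C. In bulk RNA, fewer cells of a type and less RNA per cell cannot be told apart, and the part of such cells in the members' differences was not tested.

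**Figure D3:**
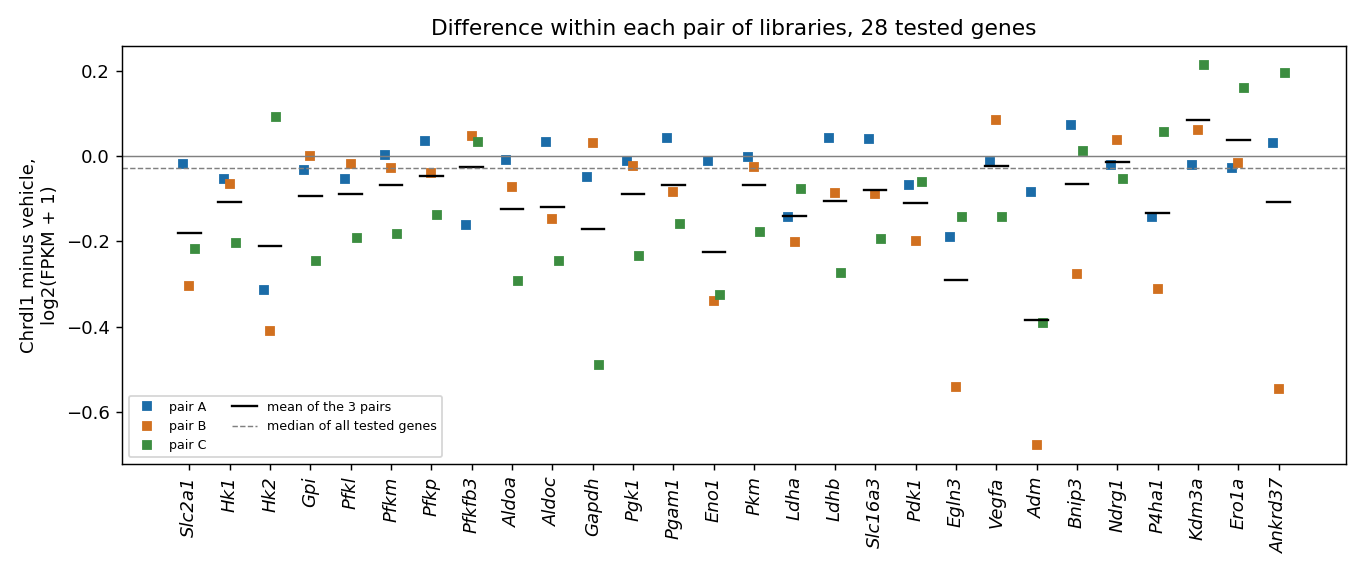
Difference between the Chrdl1 and the vehicle library of each pair, in log2(FPKM + 1), for the 28 tested genes; squares are pairs, black bars the mean of the 3 pairs and the dashed line the median of all tested transcripts. Of the 28 means 26 lie below 0, and Adm has the lowest at -0.38.

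Slc2a1 (chr5:138154680-138182897 of rn6, plus strand), the widely expressed glucose transporter, was the glucose uptake gene of the set with a measured level. It was at 31.7, 33.1 and 37.1 FPKM in vehicle libraries A, B and C and at 31.3, 26.6 and 31.8 FPKM in the Chrdl1 libraries in the same order. Each Chrdl1 library lay below its pair, but the groups overlapped. The mean difference was -0.18 ± 0.11 (SE, n = 3 per group). Under the replicate block it was -0.18 ± 0.07, with an unadjusted limma p of 0.029 and an adjusted p of 0.872.

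Hexokinase traps glucose in the cell. Hk1 was at 108, 93.3 and 94.9 FPKM in vehicle and 104, 89.1 and 82.3 FPKM in Chrdl1 libraries. Hk2 was at 2.94, 2.76 and 3.23 FPKM in vehicle and 2.17, 1.83 and 3.51 FPKM in Chrdl1. Hk1 was lower in each pair with overlapping groups, whereas Hk2 was lower in 2 pairs and higher in pair C. The differences were -0.11 ± 0.12 for Hk1 and -0.21 ± 0.21 for Hk2. Gpi, which isomerizes glucose 6-phosphate, was at 183, 154 and 187 FPKM in vehicle and 179, 154 and 158 FPKM in Chrdl1. The Gpi values of pairs A and B were nearly equal, and pair C differed by -0.25.

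Phosphofructokinase, the committed step, was expressed as 3 paralogs. Pfkp, the platelet type, was at 124, 131 and 127 FPKM in vehicle and 127, 127 and 115 FPKM in Chrdl1. Pfkm, the muscle type, was at 88.1, 89.9 and 93.7 FPKM in vehicle and 88.4, 88.2 and 82.5 FPKM in Chrdl1. Pfkl was at 78.9, 76.8 and 80.1 FPKM in vehicle and 76.1, 75.8 and 70.0 FPKM in Chrdl1. All 3 paralogs were lowest in Chrdl1 library C, and their mean differences were -0.05 ± 0.09, -0.07 ± 0.08 and -0.09 ± 0.08 in that order. Pfkfb3, which makes the phosphofructokinase activator fructose 2,6-bisphosphate, ranged from 16.1 to 19.0 FPKM over the 6 libraries.

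The aldolases followed the pair more than the treatment. Aldoa was at 527, 412 and 553 FPKM in vehicle and 523, 392 and 451 FPKM in Chrdl1. Aldoc, the brain aldolase, was at 360, 250 and 375 FPKM in vehicle and 368, 225 and 316 FPKM in Chrdl1. In both genes the pair B libraries were the lowest of all 6. The mean differences were -0.12 ± 0.18 and -0.12 ± 0.23.

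Pair B was also lowest in Pgk1, Pgam1 and Eno1 of the payoff steps. Pgk1, which makes the first ATP of the pathway, was at 167, 129 and 179 FPKM in vehicle and 166, 127 and 152 FPKM in Chrdl1. Pgam1, the phosphoglycerate mutase, was at 191, 144 and 197 FPKM in vehicle and 197, 136 and 176 FPKM in Chrdl1. Eno1 (chr5:167288717-167299610 of rn6, plus strand), the ubiquitous enolase, was at 43.3, 40.3 and 53.3 FPKM in vehicle and 43.0, 31.6 and 42.3 FPKM in Chrdl1. Eno1 was nearly equal within pair A and lower by 0.34 and 0.33 on the log2 scale in pairs B and C. Its mean difference was -0.23 ± 0.16. Under the replicate block it was -0.23 ± 0.08, with an unadjusted limma p of 0.0111 and an adjusted p of 0.845. Gapdh (24.0 to 34.7 FPKM) and Pkm (53.1 to 61.8 FPKM) had mean differences of -0.17 ± 0.16 and -0.07 ± 0.10, and pair B was not lowest throughout in either.

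By deposited FPKM, lactate dehydrogenase was mostly the B subunit, the form linked to oxidative tissues, with the level of Ldha uncertain for its many pseudogenes. Ldhb was at 118, 107 and 125 FPKM in vehicle and 121, 100.3 and 103 FPKM in Chrdl1. Ldha, the HIF-responsive subunit, was at 33.5, 30.4 and 34.5 FPKM in vehicle and 30.2, 26.3 and 32.7 FPKM in Chrdl1. Ldha was lower in each pair and its groups overlapped, with a difference of -0.14 ± 0.11. Slc16a3, a lactate exporter typical of glycolytic cells and glia, ranged from 0.953 to 5.94 FPKM, and Pdk1, the kinase that restrains pyruvate dehydrogenase, from 11.8 to 15.3 FPKM.

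The groups overlapped in each of the 4 isozyme shares formed. Hk2 made up 2.93% ± 0.330 (SD, n = 3) of hexokinase FPKM in vehicle and 2.71% ± 1.19 in Chrdl1 libraries. Pfkp made up 42.9% ± 0.895 of phosphofructokinase FPKM and 43.4% ± 0.337. In both enzymes the means differed by less than the larger SD. Aldoc made up 39.6% ± 1.61 of the aldolase pair and 39.7% ± 2.75. Ldhb was 78.0% ± 0.258 of lactate dehydrogenase FPKM in vehicle and 78.4% ± 2.23 in Chrdl1. Over these 4 shares the two-sided exact permutation p was 0.8, 0.4, 1 and 0.9 in that order and 1 after Benjamini-Hochberg adjustment, where 0.1 is the smallest p that 3 libraries against 3 allow. That permutation did not use the pairs. A two-sided sign-flip test within pairs gave no p under 0.5, where 0.25 is the smallest that 3 pairs allow. Shares of Eno2 and Slc2a3 were not formed, given their entries near 0.

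Of the oxygen sensors in the set, Egln3 had values (chr6:75050329-75075795 of rn6, minus strand). This prolyl hydroxylase, itself a HIF target, was at 1.77, 2.15 and 3.58 FPKM in vehicle and 1.43, 1.17 and 3.15 FPKM in Chrdl1. Each Chrdl1 library was below its pair, and the pair C libraries were the highest in each group. The mean difference was -0.29 ± 0.31. Under the replicate block it was -0.29 ± 0.13, with an unadjusted limma p of 0.0407 and an adjusted p of 0.872.

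Adm (chr1:175445088-175447259 of rn6, plus strand), the gene of the peptide hormone adrenomedullin, had the lowest mean difference of the set. It was at 3.61, 3.53 and 14.5 FPKM in vehicle and 3.35, 1.84 and 10.8 FPKM in Chrdl1. All 3 Chrdl1 values lay below their pairs, by 0.08, 0.68 and 0.39 on the log2 scale, but the groups overlapped because the pair C libraries were far higher than the rest. The mean difference was -0.38 ± 0.65, and under the replicate block -0.38 ± 0.12 with an unadjusted limma p of 0.00747 and an adjusted p of 0.797. The difference was 0.20 without vehicle library C, 0.06 without Chrdl1 library B, -0.97 without Chrdl1 library C, -0.68 without vehicle library B, -0.67 without vehicle library A, -0.25 without Chrdl1 library A and -0.24 without both libraries of pair B.

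None of the other 7 tested hypoxia response genes kept 1 direction in all 3 pairs. Vegfa, the vascular growth factor, ranged from 27.9 to 44.4 FPKM, and both libraries of pair A were the lowest. P4ha1, a collagen prolyl hydroxylase, ranged from 9.22 to 30.3 FPKM, and Ndrg1 from 7.70 to 17.2 FPKM. In both genes the pair B libraries were the lowest and the pair C libraries the highest. Bnip3, a mitophagy receptor, ranged from 14.3 to 20.9 FPKM, Ankrd37 from 2.87 to 5.28 FPKM, and Kdm3a, a histone demethylase, from 8.22 to 16.2 FPKM. Ero1a, an oxidase of the endoplasmic reticulum, stayed between 22.3 and 25.8 FPKM. Car9, a carbonic anhydrase, was at 0.992, 1.57 and 0.824 FPKM in vehicle and 0.666, 1.15 and 0.622 FPKM in Chrdl1; it did not reach the level for testing.

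In most members, the pair a library belonged to took up more of the variation than the treatment did. Its median share of a member's variation in log2(FPKM + 1) was 73.4%, with 11.8% for treatment, against 80.2% and 3.95% over all tested transcripts. Treatment took the larger share in Pfkl (51.7%, with 10.6% for pair), Pfkm (40.4%, with 2.12%) and Slc2a1 (43.4%, with 37.3%). The pair has more levels than the treatment, and the shares were not adjusted for that. In 11 of 28 members (39.3%, against 20.0%) both libraries of pair B lay below the other 4, among them Aldoa, Aldoc, Pgk1, Pgam1, Gpi and Eno1. In 8 members (28.6%, against 23.4%) both libraries of pair C lay above the other 4, among them Hk2, Slc16a3, Egln3 and Adm. Both libraries of pair A lay above the other 4 in 3 members (Hk1, Pkm and Ero1a, 10.7% against 13.6%) and below them in 3 (Vegfa, Ankrd37 and Kdm3a, 10.7% against 22.7%). No member had both libraries of pair B above the other 4 (against 17.8%) or both libraries of pair C below them (against 14.7%).

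Markers of other cell types moved with the same pairs. In pairs A, B and C, the microglia list averaged 176, 18.2 and 230.4 summed FPKM and the endothelial and mural list 86.6, 15.4 and 135 summed FPKM. The photoreceptor list averaged 5.49, 3.32 and 50.7 summed FPKM and the astrocyte and Müller glia list 73.5, 57.9 and 92.9. The pair B libraries thus held the least of each of these 4 lists, and the pair C libraries the most. The RGC list averaged 2324, 2060 and 2094 summed FPKM, but its genes did not move together. Rbpms, Pou4f2, Isl1 and Slc17a6 were highest in the libraries of pair B. Pou4f2 was at 38.0 and 36.1 FPKM there and at most 28.6 FPKM in the other pairs. Thy1 was lowest in pair B (153 and 133 FPKM) and highest in pair C (271 and 245 FPKM). All 8 genes of each of the 4 lists of other cell types were in the table, but single genes led the sums, as Glul did in the astrocyte and Müller glia list. Acta2 reached 115 FPKM while the endothelial markers Pecam1 and Cdh5 reached at most 0.397 and 0.114 FPKM, and Crx of the photoreceptor list reached 45.5 FPKM. Of the microglia list, Tyrobp reached 75.3 FPKM and Cx3cr1 at most 0.063 FPKM. Whether those cells contribute to the members' levels was not tested.

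**Figure D4:**
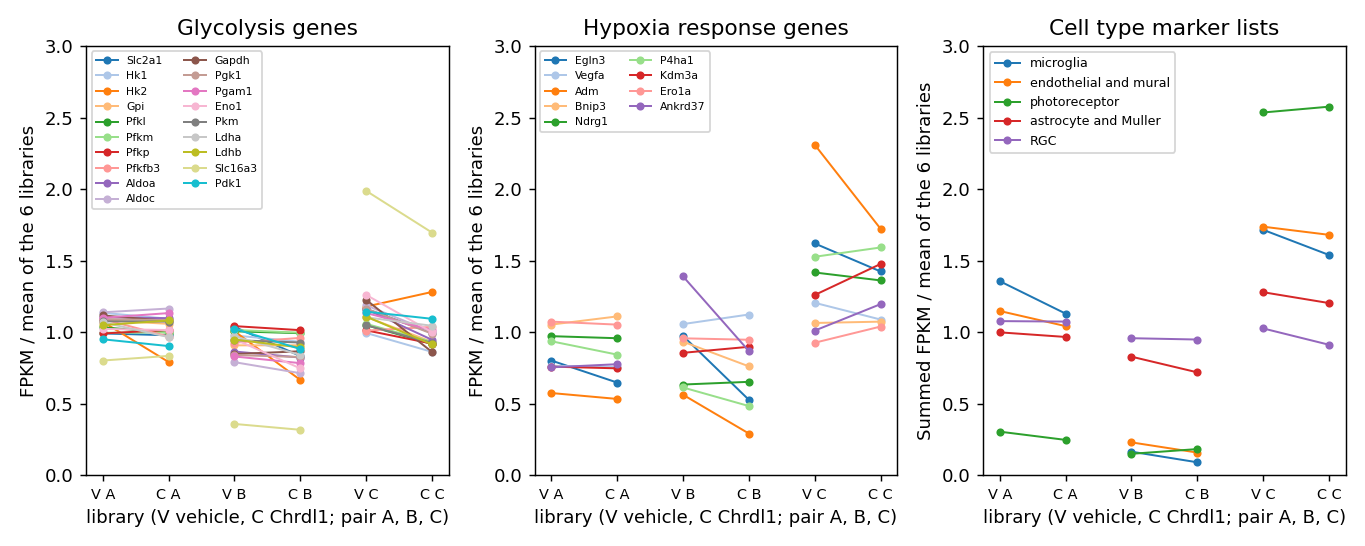
Level of each gene (left and middle) or of each marker list (right) in each library, divided by its mean over the 6 libraries; lines join the vehicle (V) and Chrdl1 (C) library of a pair. Slc16a3, Adm, P4ha1 and the microglia, endothelial and photoreceptor lists are highest in pair C.

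Most regulators of HIF were expressed, and none was called. Of the 14 in the list, 13 had a row and 12 were tested. Hif3a, at most 0.236 FPKM, did not reach the level for testing. Hif1a was at 67.4, 75.9 and 82.7 FPKM in vehicle and 69.5, 74.6 and 92.7 FPKM in Chrdl1, a difference of 0.06 ± 0.14. Epas1, the HIF2 alpha subunit known from endothelium, was at 8.01, 3.78 and 15.8 FPKM in vehicle and 7.34, 2.90 and 19.1 FPKM in Chrdl1, and was lowest in pair B and highest in pair C. Arnt (6.04 to 11.0 FPKM), Vhl (24.4 to 28.7 FPKM), Egln2 (35.6 to 42.6 FPKM) and Rbx1 (85.3 to 104 FPKM), the ring-finger subunit of the Vhl ligase, differed by 0.06, -0.06, -0.11 and -0.14. Of the 12 tested HIF regulators, 1 was higher and 4 were lower in all 3 pairs, with a median of -0.04. Over all tested transcripts these shares were 7.55% and 19.5%, and the median was -0.03.

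Neighbouring pathways were likewise without a call in limma, with or without the block, and their direction counts are to be read against the same 7.55% higher and 19.5% lower and the median of -0.03 over all transcripts. Among 28 other HIF target genes the median difference was -0.07, with 2 higher and 9 lower in all 3 pairs. Mif, a cytokine, differed by -0.20 ± 0.15, and Tfrc, the transferrin receptor, by 0.11 ± 0.12. The copy number column gives Mif as 2, yet it was at 69.9 to 106 FPKM, and its difference carries the limit of that column. Hmox1 (heme oxygenase) and Ddit4 (an inhibitor of mTOR signalling), named after their values were seen, had the smallest p under the replicate block in that list. They differed by -0.16 and -0.21, lower in all 3 pairs, with unadjusted limma p of 0.0199 and 0.0241 and an adjusted p of 0.872 for both. The 13 other glycolysis enzymes had a median of -0.04, with 0 higher and 2 lower in all 3 pairs; Tigar and Pgm2 differed by -0.15 and -0.13. The 8 other glucose and monocarboxylate transporters had a median of -0.05, with 1 higher and 2 lower in all 3 pairs. Slc16a7, the neuronal monocarboxylate importer, was at 4.72, 5.32 and 2.44 FPKM in vehicle and 5.85, 5.40 and 5.04 FPKM in Chrdl1, higher in each pair, by 0.36 ± 0.24 on average. The pair differences were 0.26, 0.02 and 0.81, and leaving out 1 library or pair gave 0.095 to 0.54. Slc2a8, Slc16a1 and Bsg, the chaperone of the monocarboxylate transporters, differed by -0.19, -0.12 and -0.10. For 9 genes of pyruvate dehydrogenase and its regulators the median was -0.03, with 0 higher and 1 lower in all 3 pairs, and Pdhb and Pdhx were at -0.09 and -0.07. For 7 genes of the pentose phosphate pathway, which branches off glucose 6-phosphate, it was -0.11, with 0 higher and 2 lower, and Pgls and Rpia were at -0.19 and -0.16.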

How the data were processed

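Polyadenylated RNA of RGC cultures was sequenced as 6 stranded mRNA libraries, per the labels. FastQC, STAR 2.4.0k, HOMER 4.8.3 and the rn6 build are named in the submitters' processing notes. The annotation release, strand setting and treatment of reads with several matches were not given in the sources used here. In 1 table, the authors deposited FPKM values per RefSeq transcript, with transcript length and a copy number column. Read totals were recovered from the FPKM steps: 99.3% to 100.0% of the values above 0 were whole reads within the 0.0005 FPKM of rounding, and 62.7% to 65.8% of the reads fell on listed transcripts.

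Transcripts with at least 1 FPKM in at least 3 libraries entered limma 3.58.1 (R 4.3.3, mean-variance trend, two-sided) as log2(FPKM + 1). Treatment was the only term, and p-values were adjusted by Benjamini-Hochberg over all 10390. The procedure was tested on simulated data. Whether title numbers pair the libraries was checked: across tested transcripts, deviations from the group means correlated at 0.82, 0.86 and 0.84 within pairs A, B and C and negatively between pairs. Deviations cancel out within each group, so the negative values between pairs follow from the positive ones within them. From the values within pairs, the libraries were taken as paired, and values with a replicate block are given too. Motifs and shares were computed in Python 3.11.15 (numpy 2.4.6, pandas 2.3.3). Alternatives were other pseudocounts, filters and scalings, voom on recovered reads, the block, and leaving out libraries.

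The members and gene lists were chosen with earlier results of these data known. Genes given by library were the 8 most abundant, the paralogs, the 6 with the smallest unadjusted p under the block and 1 direction in all pairs, and those failing the filter. Other lists gave the 2 with the smallest unadjusted p without the block plus Hif1a, Epas1, Arnt, Vhl, Slc16a1 and Bsg. Promoter sequences come from RefSeq (GRCr8), whose coordinates are not those of rn6.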

Additional observations from a re-analysis of the deposited data

How the results depend on the processing

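No member was called under any alternative run. The replicate block was used in the main fit, with voom, with quantile normalization and with the length trend removed. Other pseudocounts, filters, median centring and the runs that left out libraries were fitted without it. With 3 pairs, the block gave intervals of about 0.16 log2 on either side. The tested members held at least 33 reads in every library, and detection against depth was not tested. Signs of differences near 0 depended on the scaling, and the cause was not tested. Quantile normalization, with or without the replicate block, put Pfkp at 0.021, Vegfa at 0.022 and Ndrg1 at 0.0078, and median centring put Ndrg1 at 0.0039. Voom on recovered reads gave Vegfa 0.0050, and with the replicate block Ndrg1 0.0092 and Epas1 0.10. Removing the trend with transcript length, with the replicate block, gave Pfkfb3 0.013, Vegfa 0.0070 and Ndrg1 0.011. A filter at 5 FPKM gave no value for Hk2, Slc16a3, Egln3, Ankrd37 and Adm.

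Leaving out 1 library or 1 pair gave ranges that crossed 0 for Adm (-0.97 to 0.20), Aldoc (-0.30 to 0.079), Ankrd37 (-0.28 to 0.11), Arnt (-0.14 to 0.24), Bnip3 (-0.16 to 0.099), Bsg (-0.31 to 0.080), Epas1 (-0.65 to 0.53), Ero1a (-0.021 to 0.0997), Hif1a (-0.059 to 0.15), Kdm3a (-0.18 to 0.28), Ndrg1 (-0.28 to 0.25), P4ha1 (-0.55 to 0.26), Pdhx (-0.14 to 0.031), Pfkfb3 (-0.083 to 0.041), Pgam1 (-0.21 to 0.083), Pgk1 (-0.23 to 0.018), Slc16a3 (-0.49 to 0.38) and Vegfa (-0.21 to 0.15). Eno1 (-0.33 to -0.086), Slc2a1 (-0.26 to -0.10), Egln3 (-0.58 to -0.081) and Ldha (-0.21 to -0.058) kept their sign. The member median ran from -0.187 to -0.038. Differences of the shares ran from -0.835 to 1.68 percentage points for Aldoc, -0.912 to 0.128 for Hk2 and -0.504 to 1.81 for Ldhb.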
